A study of Homo sapiens with 22 samples.

Results

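RNA of the libraries labelled R52C was compared with RNA of empty-vector libraries, 12 of the 22 libraries of the series. RWPE1 is an immortalized, non-tumorigenic line of human prostate epithelium. Per the labels, every library came from RWPE1 cells treated with paraquat, a herbicide whose redox cycling makes superoxide. The Vector group (6 libraries, labelled Control Vector) carried an empty, altered pTRIPZ, which is an inducible lentiviral backbone. The R52C group (6 libraries, labelled NKX3.1 (R52C)) was labelled as overexpressing NKX3.1 with the R52C substitution. The series also held 6 libraries labelled with wild-type NKX3.1 and 4 labelled T164A, which appear below only where a value bears on the comparison. There was no untreated library here, so paraquat was shared by both groups and its effect was not measured. The labels give no dose, time, passage or clone, and nothing in them tells separate cultures from repeat libraries of 1 culture. The p-values therefore rest on library-to-library spread, which may be technical.

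The table held 49149 genes with a symbol. All genes above a log2 level of 3, taken here as the floor, in at least 4 of the 12 libraries were compared, 20120 in all. All levels are the authors' normalized log2 values, 1 unit being a 2-fold step. They are not scaled to transcript length, so they are compared between libraries and never between genes. A gene is called where the adjusted p of limma is under 0.05. Where libraries of the lower group lay under the floor they were raised to 3, and the fold is then given as "at least".

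NKX3.1 is a homeodomain transcription factor made by the luminal cells of the prostate, and its loss is among the early events of prostate cancer. Luminal cells secrete prostate-specific antigen and depend on androgens, to which FOXA1 and HOXB13 help shape the response. Basal cells lie beneath them on the basement membrane. They carry the transcription factor p63, the keratins KRT5 and KRT14, and the hemidesmosomes that hold the layer to its matrix. The title of the series is about mitochondrial NKX3.1, so genes that remove oxidants and genes of the respiratory chain are described at length below. The R52C against Vector comparison sets libraries labelled with the substituted form against empty-vector libraries, all labelled as paraquat-treated.

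Basal markers were nearly missing from the libraries labelled R52C, which goes against the label RWPE1 as the Vector libraries show that line. Basal marker genes (KRT5, KRT14, KRT15, TP63, ITGB4 and NGFR) took 0.749% to 0.907% of all signal, summed on the linear scale, in Vector and 0.000822% to 0.00172% in R52C. KRT15, TP63 and NGFR were under the floor in every R52C library and above it in every Vector library. The 6 luminal marker genes, KRT8, KRT18, KLK3, FOLH1 and HOXB13 among them, made up 0.0407% to 0.0844% in Vector and 0.861% to 0.892% in R52C, with all 6 above the floor in every library of both groups. In T164A, also labelled RWPE1, KLK3 averaged 0.26 and FOLH1 4.43, with KRT8 at 10.37, KRT18 at 10.21 and HOXB13 at 8.07. Vector levels of KLK3 and FOLH1 are thus not taken as those of the line. These are bulk samples, in which fewer cells of a type and less RNA per cell cannot be told apart. Identity of the cells and the introduced form of NKX3.1 cannot be told apart in this comparison either. Directions below are therefore between libraries as labelled.

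Markers of other cell types took a small share of the signal in both groups. Among 10 fibroblast and endothelial markers present in the table, 7 were under the floor in every library of both groups, the defining ones among them being COL1A2, COL3A1, DCN, PDGFRA, CDH5 and KDR. Their summed share was 0.0062% to 0.0098% in Vector and 0.00298% to 0.00363% in R52C. COL1A1, a collagen chain, was nonetheless at 10.35 to 10.91 in Vector and 7.90 to 8.27 in R52C, and VWF, an endothelial clotting factor, at 3.66 to 5.47 and 7.84 to 8.14. The 10 immune markers summed to 0.00287% to 0.00336% and 0.000836% to 0.000888%, with CD3E, MS4A1 and LYZ under the floor in all 12 libraries. CD68, a lysosomal protein of macrophages, was at 8.98 to 9.13 in Vector and 6.80 to 6.94 in R52C, and CD14 at 5.80 to 6.59 and 0.38 to 2.51. The 10 neuroendocrine markers summed to 0.00336% to 0.00463% and 0.00714% to 0.00755%, with INSM1 and NEUROD1 under the floor throughout.

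In this comparison 17381 of 20120 genes were called (86.4%). Of these 8875 were higher in R52C (44.1% of genes tested) and 8506 lower (42.3%). By at least 2-fold, 3829 were higher (19.0%) and 4055 lower (20.2%). The libraries of the groups did not overlap in 15041 genes (74.8%). The median difference over all genes was 0.02, with floored values as in the list medians below. A single call is thus ordinary here, and the size of a difference says more than its call. The filter bears on this, since 2266 genes passed it through Vector alone and 1322 through R52C alone. Genes of the first kind could hardly come out higher in R52C, nor those of the second lower. The Vector libraries fell into 2 sets as well: replicates 1 to 3 all lay above replicates 4 to 6 in 2930 of the 20120 genes (14.6%) and all below them in 4179 (20.8%), and some genes near equality changed direction with the set left out.

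Rises and falls had different shapes. The largest rise was 4.32 and the largest fall -11.95 on the log2 scale. Of the genes higher in R52C 482 rose by 3 or more, and only 40 by 4 or more. Of the genes lower in R52C 711 fell by 4 or more, 74 by 8 or more and 11 by 10 or more. Many of the genes that fell most were at or under the floor in R52C.

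**Figure D1:**
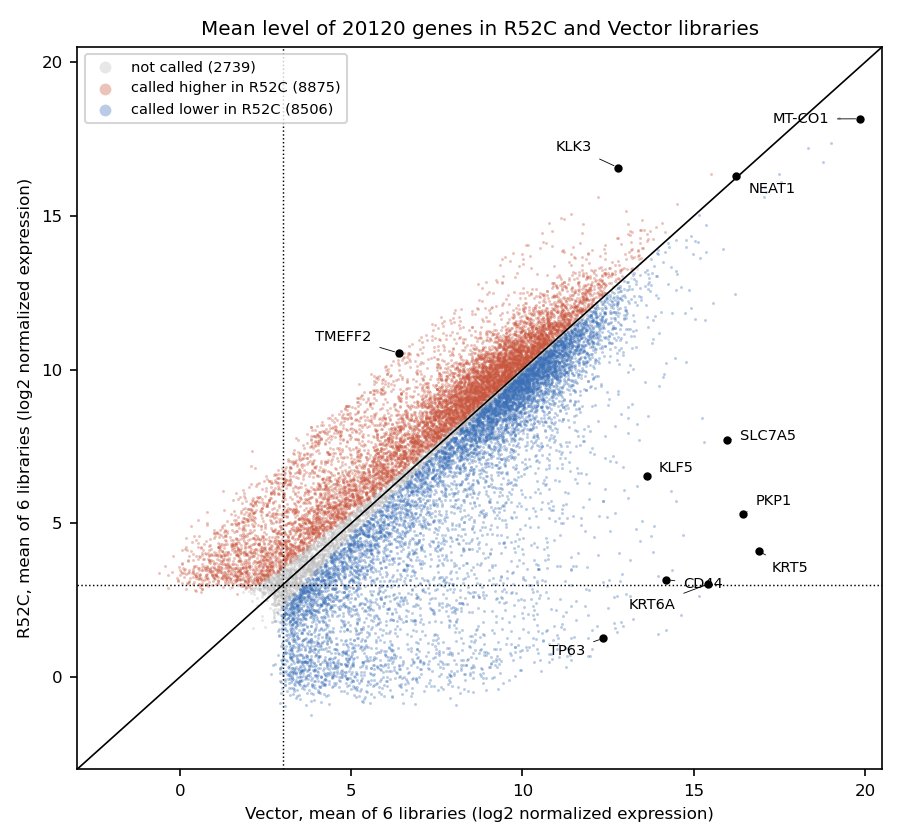
Mean log2 level of each of the 20120 genes in 6 Vector libraries (horizontal axis) and 6 R52C libraries (vertical axis); the solid line marks equal levels, dotted lines the floor of 3, and colours the call. The rises form a band that ends near 4 above the line, whereas the falls reach down to the floor from Vector levels as high as 16.90 (KRT5).

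Transcription factors of luminal cells rose. Of 14 on the list 10 were higher and 4 lower, with a median difference of 3.09, against 0.02 over all genes. FOXA1, a pioneer factor that opens chromatin, was at 9.10, 9.46 and 9.75 in Vector (lowest, median and highest of 6) and at 13.01, 13.05 and 13.07 in R52C, a rise of 3.62 (SE 0.08, adjusted p = 1.07e-17). HOXB13, the prostate homeobox factor, was at 8.18, 8.76 and 9.15 and 12.73, 12.78 and 12.81, a rise of 4.07 (adjusted p = 2.85e-16). For both the lowest R52C library lay above the highest Vector library, and the R52C libraries were the more tightly grouped. SPDEF, an ETS factor of secretory epithelia, rose by 4.01, from 7.46 ± 0.45 (SD, n = 6) to 11.47 ± 0.07. ETV1, another ETS factor and an oncogene in some prostate cancers, rose by 3.89, from 7.64 ± 0.33 to 11.53 ± 0.05. GATA2, a zinc finger factor, rose by 3.13, and ZBTB16, a repressor, by 3.65. EHF, an epithelial ETS factor, rose by 3.04, CREB3L4, a membrane-bound factor of prostate secretory cells, by 1.9958, and XBP1, a factor of the unfolded protein response, by 1.10. The 4 that fell were ELF3, an epithelial ETS factor (fell by 2.43), the splicing regulators ESRP1 (fell by 1.52) and ESRP2 (fell by 0.59), and the GATA-type factor TRPS1 (fell by 0.70).

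All 18 basal transcription factors fell, with a median of -4.68. TP63, which encodes p63, was at 12.28, 12.34 and 12.58 in Vector and at -0.71, 1.32 and 2.98 in R52C, at least 659-fold lower (adjusted p = 6.83e-13). All 6 R52C libraries were under the floor in it. KLF5, a Krüppel-like factor of proliferating epithelium, was at 13.54, 13.57 and 13.86 and 6.43, 6.56 and 6.65, and fell by 7.08 (adjusted p = 4.2e-23). BNC1, basonuclin, was at least 268-fold lower, HMGA2, a chromatin architecture factor, at least 74.6-fold lower, and FOSL1, a partner of Jun proteins, at least 20.3-fold lower, each under the floor in every R52C library. Factors of squamous differentiation fell too, ZNF750 by 6.81 and GRHL3 by 5.36, and SOX15 was at least 66.7-fold lower. RUNX1 fell by 5.34 and SNAI2, a repressor of the Snail family, by 5.02. Smaller falls were seen in TFAP2A (3.27), KLF4 (2.68), OVOL1 (2.32), IRX4 (1.76), TFAP2C (1.53), TP73 (0.93) and PAX9 (0.35), all of which stayed well above the floor in R52C. Of the 18 genes 4 passed the filter through Vector alone.

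**Figure D2:**
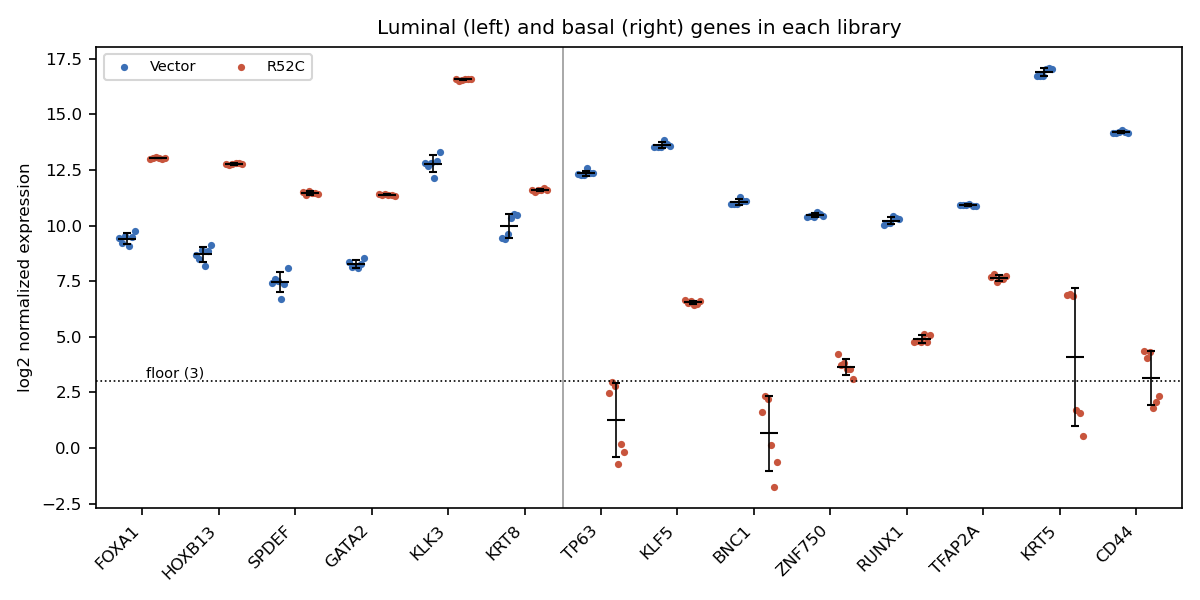
Log2 level of 14 luminal and basal genes in each of 6 Vector (blue) and 6 R52C (red) libraries; points are libraries, black marks the mean and SD, and the dotted line is the floor of 3. The luminal genes at left were picked among those that rose, and all are higher in R52C with little scatter. Of the 14 luminal transcription factors listed, 4 were lower. In KRT5 and CD44 the 6 R52C libraries form 2 clusters.

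Genes regulated by androgens rose for the most part. Of 30 on the list 24 rose and 6 fell, with a median of 2.10. KLK3 (prostate-specific antigen) was at 12.14, 12.82 and 13.32 in Vector and at 16.52, 16.59 and 16.61 in R52C, a rise of 3.79 (SE 0.12, adjusted p = 3.24e-15). The kallikreins KLK2 and KLK4 rose by 3.78 and 4.14, and the 3 kallikreins together took 0.0245% to 0.0579% of the summed signal in Vector and 0.637% to 0.674% in R52C. TMPRSS2, a membrane serine protease, was at 10.54, 11.17 and 11.57 and 14.89, 14.92 and 14.94 and rose by 3.80. The metalloreductases STEAP1 and STEAP2 rose by 3.69 and 3.66, whereas STEAP4 of the same family fell by 2.37. TRPM8, a cold-gated cation channel, rose by 3.88, SLC45A3, prostein, by 3.46, SORD, sorbitol dehydrogenase, by 3.43, and ABCC4, an efflux pump, by 3.48. Rises in others of the list were much smaller, such as 0.47 in FKBP5, a co-chaperone of steroid receptors, whose libraries were at 10.94, 11.31 and 11.71 and 11.73, 11.79 and 11.86. ELL2, a transcription elongation factor, fell by 2.77, NDRG1, a stress-responsive gene, by 1.91, MAF by 0.80, EAF2 by 0.70 and ACSL3 by 0.10, the last with overlapping libraries.

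The promoter of KLK3 is shown because it is the classical androgen-responsive promoter. The sequence is RefSeq's (GRCh38.p14, chr19:50854665-50854914, plus strand), the 250 bases before the start of the gene, with the hexamer AGAACA of the androgen response element, searched on both strands, in capitals.
KLK3: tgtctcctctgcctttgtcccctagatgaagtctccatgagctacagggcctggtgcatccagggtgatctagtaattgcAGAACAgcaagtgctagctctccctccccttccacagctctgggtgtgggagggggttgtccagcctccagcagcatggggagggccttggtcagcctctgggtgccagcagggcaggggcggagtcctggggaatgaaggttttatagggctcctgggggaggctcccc
Of the 30 androgen-regulated genes 23 had a promoter entry, and 1 of these, KLK3, held AGAACA in 250 bases upstream (4.35%), against 12.4% of 27305 RefSeq promoters. The letters were thus no more frequent in these windows than in promoters at large.

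Genes of androgen metabolism divided by family. The glucuronosyltransferases that inactivate androgens were higher: UGT2B17 rose by 3.08, UGT2B15 was at least 8.07-fold higher and UGT2B11 at least 2.44-fold higher. The aldo-keto reductases AKR1C1, AKR1C2 and AKR1C3, which reduce steroid ketones, were at least 27.1-fold, at least 17-fold and at least 12.3-fold lower. STS, steroid sulfatase, rose by 1.26, SULT2B1, a steroid sulfotransferase, fell by 2.07, and SRD5A1, a steroid reductase, rose by 0.37. Of the 14 genes of this list tested 9 were higher and 5 lower (median 0.69), 3 having passed the filter through Vector alone and 2 through R52C alone. Members of both families are near-identical copies, so the split of reads among them is uncertain.

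Cancer-testis genes, normally silent outside the germ line, were higher in R52C. Of 20 on the list 10 were tested and all 10 were called higher, though 6 passed the filter through R52C alone. MAGEA3, MAGEA6, MAGEA12 and MAGEA10 were above the floor in every Vector library and rose by 4.08, 4.09, 4.10 and 3.78. MAGEA3 was at 5.94, 6.85 and 7.29 in Vector and at 10.75, 10.84 and 10.95 in R52C. MAGEA1 was at least 8.99-fold higher and PAGE1 at least 4.05-fold higher, with MAGEA2B, MAGEA4, MAGEA8 and MAGEC2 between at least 1.44-fold and at least 3.22-fold. These copies on the X chromosome are similar in sequence, so values of single members are uncertain.

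The 20 largest rises came from many functions. Beside TMEFF2, KLK4 and the MAGE genes, they held DDC, the decarboxylase that makes dopamine and serotonin, at 5.08, 5.59 and 6.17 in Vector and 9.72, 9.85 and 9.96 in R52C. LCP1, an actin-bundling protein otherwise of leukocytes, was at 8.77, 9.49 and 9.83 and 13.57, 13.59 and 13.63. In both the groups did not overlap, and the rises were 4.29 and 4.20. TMEFF2, a transmembrane protein of prostate and brain, rose by 4.16, PLEKHB1 by 4.09, and SLAIN1, a microtubule-associated protein, by 4.10. PDZRN3, a ubiquitin ligase, was at least 19-fold higher, MKRN3, an imprinted ubiquitin ligase, 18.4-fold higher, and KCNH8, a potassium channel, at least 17.2-fold higher. DTNA, dystrobrevin, was 17.9-fold higher, MYRIP, a myosin and Rab binding protein, 17.9-fold higher, and ADAM2, a sperm membrane protein, 17.7-fold higher. FOLH1B, at least 19.9-fold higher, is a close copy of FOLH1 and its value is uncertain. Another 5 genes of this set are not named.

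The same Vector libraries were high or low in gene after gene that rose. Among the 20 largest rises Vector replicate 4 was the lowest of the 6 in 15 and replicate 6 the highest in 13. Among all 362 genes that rose by 3 or more and were above the floor in every Vector library, replicate 4 was lowest in 245 and replicate 6 highest in 272. Their mean deviations from the Vector mean were -0.40 and 0.40 log2 units in those genes, and -0.04 and 0.01 over all 20120 genes. HOXB13 shows the order: Vector replicate 4 was at 8.18, replicates 1, 2, 3 and 5 were between 8.48 and 8.93, and replicate 6 was at 9.15.

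The same order was seen in a set chosen without the Vector libraries. It held 91 genes, all that averaged 8 or more in R52C and lay under the floor in T164A. The median ratio of their linear level to the R52C mean was 5.86% in Vector replicate 4, 7.78% to 8.62% in replicates 1, 2, 3 and 5, and 11.1% in replicate 6. Per library the middle of the 91 genes ran from 4.62% (first quartile, replicate 4) to 28.6% (upper quartile, replicate 6). What sets the ratio was not tested.

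**Figure D3:**
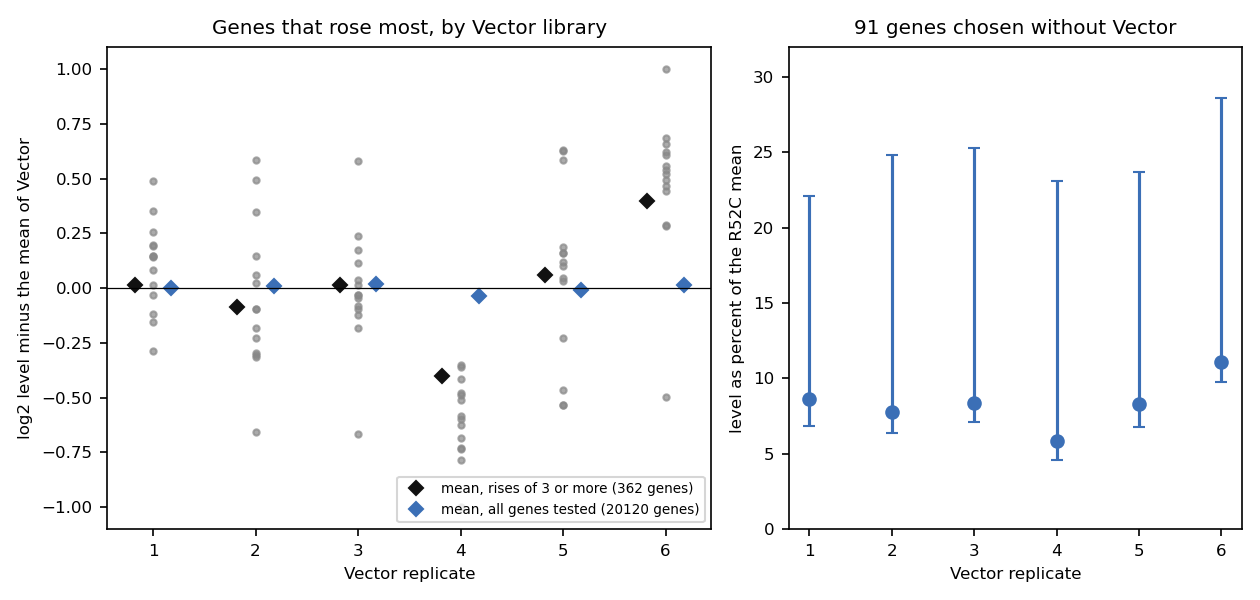
Left, log2 level minus the Vector mean in each of 6 Vector libraries for part of the 20 largest rises (grey points), with the mean over the 362 genes that rose by 3 or more (black) and over all 20120 genes (blue). The grey points leave out genes under the floor in any Vector library and some others of the 20. Right, level as a percent of the R52C mean for the 91 genes chosen without Vector, as median and quartiles: replicate 4 is lowest at 5.86% and replicate 6 highest at 11.1%.

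The keratins had the lowest median of the 49 lists. These are the intermediate filament proteins of epithelium. Of 18 keratins 16 fell and 2 rose, with a median of -8.33, and 11 passed the filter through Vector alone. The 2 that rose were KRT8, from 9.97 ± 0.54 to 11.60 ± 0.06, and KRT18, from 9.16 ± 0.29 to 10.74 ± 0.04, the keratin pair of simple and luminal epithelium. KRT14, the basal partner of KRT5, was at 14.33, 14.45 and 14.65 in Vector and 5.30, 5.79 and 6.06 in R52C and fell by 8.76 (adjusted p = 7.61e-21). KRT19, often found in luminal and intermediate cells, fell by 6.17, KRT10, of suprabasal skin, by 6.80, and KRT80 by 5.92. KRT6A, KRT16 and KRT17, which rise in injured epithelium, were at least 2328-fold, at least 1999-fold and at least 2194-fold lower. KRT15, KRT13 and KRT4 were at least 482-fold, at least 239-fold and at least 505-fold lower and lay under the floor in every R52C library. All keratins together took 1.56% to 1.76% of the summed signal in Vector and 0.0304% to 0.0327% in R52C. Values of KRT6A, KRT6B and KRT6C, and of KRT14, KRT16 and KRT17, are uncertain where near-identical stretches share reads.

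Within R52C the genes that fell most were not at 1 level. KRT5 was at 6.85 to 6.95 in R52C replicates 1 to 3 and at 0.55 to 1.72 in replicates 4 to 6, against 16.73 to 17.09 in Vector. In 19 of the 20 largest falls replicates 1 to 3 all lay above replicates 4 to 6, and in 0 did they lie below. Over all 20120 genes that order was seen in 1467 (7.29%) and the reverse in 1775 (8.82%). CD44, a hyaluronan receptor of basal cells, was at 14.15, 14.20 and 14.29 in Vector and 1.8002, 3.20 and 4.37 in R52C, at least 1527-fold lower, with replicates 1 to 3 again the higher. With replicates 4 to 6 left out, so that every library was above the floor, KRT5 fell by 10.01 (adjusted p = 3.66e-19), KRT6A by 9.95 and CD44 by 9.95.

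MIR205HG, host transcript of the epithelial microRNA miR-205, was among the 20 largest falls. It was at 13.93, 13.96 and 14.01 in Vector and at -2.23, 1.81 and 4.07 in R52C, at least 1585-fold lower (adjusted p = 8.73e-11). The poly-A libraries measure the host transcript, not the mature microRNA. The mature forms are shown for the seed, bases 2 to 8, in capitals, as RefSeq gives them (GRCh38.p14, chromosome 1, plus strand, from 209432166 to 209432187 and from 209432203 to 209432223).
hsa-miR-205-5p: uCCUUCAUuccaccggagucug
hsa-miR-205-3p: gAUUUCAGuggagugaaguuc
The miR-205 family is known for repressing ZEB1 and ZEB2, drivers of mesenchymal transition. ZEB1 was at least 2.52-fold lower and ZEB2 at least 4.01-fold lower in R52C.

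Most genes of hemidesmosomes fell. Of 10 genes for these anchors and their laminin 8 fell and 2 rose (median -4.24), 2 having passed the filter through Vector alone. COL17A1, the transmembrane collagen of the anchor, was at 13.76, 13.94 and 14.18 in Vector and 2.10, 3.42 and 4.21 in R52C, at least 1333-fold lower. The laminin chains diverged: LAMB3 fell by 9.02, whereas LAMA3, the alpha chain of the same trimer, rose by 0.66, from 11.73 ± 0.11 to 12.40 ± 0.05. The integrin pair ITGB4 and ITGA6 fell by 7.09 and 3.97, COL7A1, the anchoring fibril, by 4.51, and the linkers DST and PLEC by 3.50 and 2.89. CD151, a tetraspanin bound to laminin-binding integrins, rose by 0.24.

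Other matrix and integrin genes followed in most cases, with 19 of 21 tested lower, 1 higher and 1 not called (median -3.99). Of these 21 genes 7 passed the filter through Vector alone, and over all genes 42.3% were lower. NID1, the nidogen that joins laminin to collagen, was at least 260.2-fold lower, TNC, tenascin, at least 209-fold lower, and COL4A1, a basement membrane collagen, at least 87-fold lower. The epithelial integrin chains ITGB6 and ITGB8 were at least 212-fold and at least 37-fold lower, and ITGA3 fell by 5.69. For fibronectin the direction turned with the Vector libraries used. FN1 was at 11.32, 11.66 and 11.97 in Vector and 11.50, 11.55 and 11.60 in R52C, and was not called. It was called lower without Vector replicates 1 to 3 (-0.41, adjusted p = 5.16e-09, limma) and higher without replicates 4 to 6 (0.19, adjusted p = 6.55e-06). ITGB1, the shared beta chain, rose by 0.18 with overlapping libraries, and LAMC1 fell by 0.17, also overlapping. The ITGB1 call ended with R52C replicates 1 to 3 (adjusted p = 0.0688, limma) or 4 to 6 (adjusted p = 0.0524) left out, and without Vector replicates 1 to 3 the difference was 0.03 (adjusted p = 0.468). The LAMC1 call ended when any of Vector replicates 4, 5 and 6 or R52C replicate 5 was left out (-0.16 to -0.13).

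Cell junctions were divided between desmosomes, which fell, and several tight junction genes, which rose. Of 31 junction genes 13 rose and 18 fell (median -0.55), 2 having passed the filter through Vector alone. PKP1, a desmosomal plakophilin, was at 16.38, 16.44 and 16.48 in Vector and 3.72, 5.36 and 6.77 in R52C and fell by 11.12. The desmosomal cadherins DSG3 and DSC3 were at least 878-fold and 139.9-fold lower, while DSG2, the desmoglein of simple epithelium, rose by 0.08 with overlapping libraries, a call that ended without Vector replicate 2 (0.07). DSP, desmoplakin, fell by 3.77 and JUP, plakoglobin, by 2.18. Among claudins, CLDN3, CLDN8, CLDN4 and CLDN12 rose by 3.61, 2.59, 2.11 and 1.89, while CLDN1 was at least 137-fold lower. E-cadherin, CDH1, fell by 0.13, from 13.92 ± 0.08 to 13.80 ± 0.03, P-cadherin, CDH3, by 6.13, and beta-catenin, CTNNB1, rose by 0.53. EPCAM, an adhesion protein of simple epithelium, rose by 0.33.

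Proteases and their inhibitors fell with no exception among those called. Of 20 genes tested 19 fell and MMP13, at 3.69 ± 0.53 and 3.41 ± 0.71, was not called (median -4.54), 12 having passed the filter through Vector alone. PLAU, the urokinase that activates plasminogen, was at 10.59, 10.70 and 10.78 in Vector and 1.08, 1.44 and 1.89 in R52C, at least 206-fold lower. Its receptor PLAUR fell by 3.29. MMP14, a membrane-bound collagenase, was at least 643-fold lower, TIMP3, a matrix-bound inhibitor, at least 293-fold lower, and TIMP1 at least 27.7-fold lower, whereas TIMP2 fell by only 0.61. SERPINB5, maspin, fell by 6.31, SLPI, a secreted antiprotease, by 5.65, and SERPINB13 was at least 504-fold lower.

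Caveolae, annexins and S100 proteins formed the list with the second lowest median after the keratins, -7.30. Of 21 tested 19 fell, 1 rose and 1 was not called, and 15 passed the filter through Vector alone. CAV1, the scaffold of caveolae, was at 10.13, 10.43 and 10.89 in Vector and -1.53, 1.11 and 1.89 in R52C, at least 176-fold lower (adjusted p = 3.72e-13). CAV2 was at least 158-fold lower, EHD2, which holds caveolae at the membrane, at least 334-fold lower, and PTRF, the cavin coat protein, fell by 4.21. The annexins, calcium-dependent membrane binders, did not move as a block. ANXA1, ANXA2 and ANXA3 were at least 728-fold, at least 580.0-fold and at least 109-fold lower, ANXA6 rose by 3.75, and ANXA5 was at 11.44 ± 0.15 and 11.37 ± 0.03. ANXA5 was called lower without Vector replicates 1 to 3 (-0.19). ANXA2P2, a processed copy of ANXA2 and uncertain for that reason, was at least 836-fold lower. S100A10, the partner of annexin A2, was at least 151-fold lower, S100A8 and S100A9, the calprotectin pair, at least 783-fold and at least 983-fold lower, and S100A2, S100A6 and S100A14 at least 612-fold, at least 884-fold and 437-fold lower. S100A11 fell by 1.51 and stayed far above the floor.

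Among the rest of the 20 largest falls were TGFBI, a matrix protein induced by TGF-beta (at least 1465-fold lower), FAT2, a giant cadherin (1076-fold lower), and GJB2, a gap junction connexin (at least 854-fold lower). KRT1 and KRT7 were at least 1511-fold and at least 799.9-fold lower.

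Mesenchymal genes did not rise together. Of 14 tested 10 fell, 2 rose and 2 were not called (median -1.09), 5 having passed the filter through Vector alone. VIM, vimentin, was at 7.09, 7.54 and 7.96 in Vector and 6.36, 6.53 and 6.58 in R52C and fell by 1.06. ACTA2, smooth muscle actin, rose by 1.07 and SNAI1 by 0.46, the latter with overlapping libraries. The SNAI1 call ended with R52C replicates 1 to 3 (adjusted p = 0.0574, limma), R52C replicates 4 to 6 (adjusted p = 0.0788) or Vector replicates 4 to 6 (0.299 on the log2 scale, adjusted p = 0.11) left out. TPM2, a tropomyosin, fell by 3.29, LOX, a collagen crosslinker, by 1.69, and CDH11, a mesenchymal cadherin, was at least 7.35-fold lower. Of the fibroblast and endothelial markers 3 could be tested: COL1A1 fell by 2.62, VWF rose by 3.46 and PDGFRB was at least 3.46-fold higher (median 1.79, or -0.90 with the filter taken over all 22 libraries). Of 5 immune markers tested 1, CD4, was at least 1.21-fold higher and 4 were lower, the largest being CD14, at least 8.8-fold lower (median -0.44). CD4 passed the filter through R52C alone, and 2 of these 5, CD14 among them, through Vector alone. Of 3 neuroendocrine markers tested SYP and ENO2 rose by 0.96 and 0.66 and SCG2 was at least 1.17-fold lower, with overlapping libraries (median 0.66, or -0.04 with that filter and -0.54 with none). SCG2 passed the filter through Vector alone, and PDGFRB through R52C alone.

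Growth factor receptors changed in both directions. In the EGF family 3 of 10 genes rose and 7 fell (median -1.96), 3 having passed the filter through Vector alone. EGFR was at 12.95, 13.21 and 13.58 in Vector and 11.18, 11.26 and 11.32 in R52C and fell by 1.98, while ERBB3 and ERBB2 rose by 1.18 and 0.24. The ligands split as well: EGF rose by 3.59, TGFA fell by 3.90, HBEGF by 2.79, and EREG and AREG were at least 76.7-fold and at least 6.76-fold lower.

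Other receptor tyrosine kinases rose in 5 and fell in 14 of 19 genes (median -1.10). Through Vector alone 3 of the 19 passed the filter, and through R52C alone 1. MET, the receptor of hepatocyte growth factor, was at 11.43, 11.54 and 11.76 in Vector and 1.58, 2.32 and 3.56 in R52C, at least 351-fold lower. AXL was at least 79.5-fold lower, MST1R, the receptor of macrophage-stimulating protein, fell by 6.13, FGFR2 was at least 64.8-fold lower and FGFR3 fell by 5.30. INSR, the insulin receptor, rose by 1.56 and IGF1R fell by 0.51. MERTK rose by 1.43 and FGFR4 by 1.27.

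Immediate early genes, which answer growth factors within minutes, were lower in 14 of 18 cases and higher in 4 (median -3.40). Through Vector alone 1 of the 18 passed the filter. EGR1 was at 10.91, 11.45 and 12.07 in Vector and 4.9990, 5.22 and 5.49 in R52C and fell by 6.24. FOS, JUNB and FOSL2 fell by 4.64, 4.64 and 4.33, JUN by 0.97, and JUND rose by 0.36 with overlapping libraries. The MAP kinase phosphatases went both ways, with DUSP6 and DUSP5 falling by 4.35 and 3.60 and DUSP4 rising by 2.34. The AP-1 site TGANTCA, which Fos and Jun proteins bind, was found on either strand in the promoters of 1 of 13 of the 20 largest falls with an entry (7.69%), against 6.6% of all promoters.

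Genes of the YAP and TEAD pathway, which reads cell density and matrix stiffness, fell in 16 of 19 and rose in 3 (median -1.49). Through Vector alone 3 of the 19 passed the filter. YAP1 fell by 0.99 and WWTR1, which encodes TAZ, by 3.27. Their targets CYR61, AMOTL2 and AJUBA fell by 2.64, 4.12 and 2.34 and CTGF was at least 4.02-fold lower. NF2, an upstream tumour suppressor, rose by 1.73, as did AMOT by 1.91.

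In the TGF-beta and BMP pathway 17 of 23 genes fell and 5 rose (median -2.73), 7 having passed the filter through Vector alone. The ligand TGFB1 was at least 57.1-fold lower and its receptor TGFBR2, at 9.39, 9.53 and 9.77 in Vector and 2.74, 3.29 and 3.69 in R52C, was at least 76.5-fold lower. SMAD3 fell by 2.97 while SMAD4 and SMAD2 rose by 0.83 and 0.73. The targets ID1, ID3 and ID2, inhibitors of helix-loop-helix factors, fell by 9.32, 7.58 and 3.95. BMPR1B, a BMP receptor, rose by 2.40.

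Notch genes fell in 9 of 13 cases, rose in 1 and were not called in 3 (median -2.64). Through Vector alone 2 of the 13 passed the filter, and through R52C alone 1. The receptors NOTCH1 and NOTCH3 fell by 4.34 and 4.09, the ligand JAG1 by 2.64, and the target HES1 by 5.10, from 10.55 ± 0.08 to 5.45 ± 0.24.

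Wnt genes fell in 16 of 22 cases, rose in 4 and were not called in 2 (median -1.44). Of the 22 genes 6 passed the filter through Vector alone and 1 through R52C alone. The secreted inhibitors SFRP1, DKK3 and DKK1 were at least 60-fold, at least 46.8-fold and at least 30.3-fold lower, and the receptor FZD10 at least 78.1-fold lower. AXIN2, a standard target of beta-catenin, was at least 9.44-fold higher, and LEF1, a nuclear partner of beta-catenin, at least 2.03-fold higher, while TCF7L2, another such partner, fell by 2.26.

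Interferon-stimulated genes were mostly lower. They encode antiviral effectors and are switched on by STAT2 and IRF9, among others, at the interferon-stimulated response element. Of 30 genes 26 fell, 3 rose and IFITM3 was not called (median -3.36), with 4 having passed the filter through Vector alone. IFITM3 was called lower without Vector replicates 1 to 3 (-0.17, adjusted p = 0.00392, limma) and higher without replicates 4 to 6 (0.32, adjusted p = 1.9e-06). IFIT1, which binds viral RNA caps, was at 10.11, 10.17 and 10.34 in Vector and 4.85, 5.17 and 5.39 in R52C and fell by 5.01 (adjusted p = 4.3e-19). BST2, tetherin, was at 10.49, 10.68 and 10.79 and 3.23, 3.94 and 4.19 and fell by 6.85 (adjusted p = 1.43e-18). XAF1, a proapoptotic gene, was at least 147-fold lower and under the floor in every R52C library. IFI27, TRIM22 and MX1 fell by 6.33, 5.86 and 3.51, while ISG15, the ubiquitin-like modifier, fell by only 0.54. The 3 that rose were ISG20, an exonuclease (1.67), USP18, which removes ISG15 (1.55), and IFITM2 (0.93). OAS2 was at least 74.8-fold lower, OAS1 fell by 5.56 and OAS3 by 1.89, so these synthetases fell by unequal amounts.

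Promoters of 4 of these genes are shown, since each fell by more than 4 log2 units and holds the response element in a pair. The sequences are RefSeq's (GRCh38.p14), the 250 bases before the start of the gene, with matches on either strand to GAAA, any 2 bases and GAAA in capitals. They lie at chr10:89392373-89392622 (IFIT1, plus strand), chr10:89327747-89327996 (IFIT3, plus strand), chr19:17405631-17405880 (BST2, minus strand) and chr14:94110486-94110735 (IFI27, plus strand).
IFIT1: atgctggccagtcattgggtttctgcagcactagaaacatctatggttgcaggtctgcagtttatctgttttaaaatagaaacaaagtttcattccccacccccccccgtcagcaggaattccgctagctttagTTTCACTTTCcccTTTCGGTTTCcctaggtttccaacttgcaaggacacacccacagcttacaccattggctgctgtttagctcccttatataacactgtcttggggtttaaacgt
IFIT3: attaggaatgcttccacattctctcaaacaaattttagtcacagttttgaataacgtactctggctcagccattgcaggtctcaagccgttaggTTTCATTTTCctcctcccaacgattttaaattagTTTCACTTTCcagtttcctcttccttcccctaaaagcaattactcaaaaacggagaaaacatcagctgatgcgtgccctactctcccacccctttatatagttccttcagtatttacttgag
BST2: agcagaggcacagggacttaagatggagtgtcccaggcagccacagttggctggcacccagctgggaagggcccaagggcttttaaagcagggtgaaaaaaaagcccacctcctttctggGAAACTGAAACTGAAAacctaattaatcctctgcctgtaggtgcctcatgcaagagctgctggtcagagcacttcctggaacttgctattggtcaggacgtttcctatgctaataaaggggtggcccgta
IFI27: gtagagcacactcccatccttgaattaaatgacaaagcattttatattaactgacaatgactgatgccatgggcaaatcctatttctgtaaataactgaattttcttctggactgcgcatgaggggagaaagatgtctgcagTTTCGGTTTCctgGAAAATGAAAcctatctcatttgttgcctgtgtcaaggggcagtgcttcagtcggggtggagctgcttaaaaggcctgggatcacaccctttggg
In BST2 the 2 matches overlap. Of the 30 genes 22 had a promoter entry and 13 of these held the element (59.1%), against 3.07% of 27305 promoters. The element is part of what defines the family, so its presence says nothing of how the genes came to differ here.

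The receptors and kinases upstream changed unevenly. Of 18 genes 12 fell, 5 rose and 1 was not called (median -0.85), 2 having passed the filter through Vector alone. JAK1, the kinase shared by the interferon receptors, was at 10.99, 11.10 and 11.27 in Vector and 7.24, 7.53 and 7.73 in R52C and fell by 3.59 (adjusted p = 5.01e-18). JAK2 rose by 1.57 and TYK2 fell by 0.89. STAT6, which serves the interleukin-4 receptor, was at 11.90, 12.11 and 12.22 and 4.06, 4.64 and 4.77 and fell by 7.55, the largest fall of the list. STAT2 fell by 1.05, its partner IRF9 by 3.54, and IRF1 by 3.49. IFNGR1, a chain of the interferon-gamma receptor, fell by 2.61 and IFNAR1, of the type I receptor, rose by 0.96.

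MHC class I genes, which present peptides to T cells, fell in 16 of 17 cases (median -1.62). HLA-B and HLA-C fell by 1.35 and 1.03, values that are uncertain since the genes are similar and variable, and B2M, the light chain, fell by 1.07. ERAP2, a peptide-trimming protease, was at 11.26, 11.30 and 11.48 in Vector and 5.79, 5.97 and 6.19 in R52C and fell by 5.35. The immunoproteasome subunits PSMB8 and PSMB9 fell by 3.71 and 2.49, and NLRC5, the class I transactivator, by 2.06. PDIA3, a chaperone of peptide loading, was the gene that rose, by 0.98.

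Sensors of foreign nucleic acid fell in 11 of 14 genes tested and rose in 3 (median -1.69). Through Vector alone 3 of the 14 passed the filter. IFI16, a sensor of DNA, was at 10.94, 10.97 and 11.25 in Vector and -0.57, 1.61 and 2.29 in R52C, at least 257-fold lower. MB21D1, the cyclic dinucleotide synthase cGAS, was at least 82-fold lower, its partner TMEM173, STING, fell by 1.22, and DDX58, the RNA helicase RIG-I, by 2.40. The adaptors MAVS and MYD88 and the kinase TBK1 rose by 0.34, 0.38 and 0.35.

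Cytokines and NF-kB genes fell in 15 of 17 tested, of 27 listed, and rose in 2 (median -1.86). Of these 17 genes 8 passed the filter through Vector alone, and over all genes 42.3% were lower. IL1A, an alarm cytokine of epithelium, was at least 179-fold lower, IL18 at least 118-fold lower and IL1B at least 30.5-fold lower. LIF and BIRC3 rose by 0.99 and 0.69. The 10 listed genes left untested, IL6, TNF and CXCL1 among them, were above the floor in fewer than 4 libraries.

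Genes of inflammatory cell death were among the falls. On the list of caspases and death receptors 19 of 25 fell and 6 rose (median -0.79), 5 having passed the filter through Vector alone. NLRP1, an inflammasome sensor of epithelium, was at 10.43, 10.60 and 10.77 in Vector and -1.28, 1.85 and 2.74 in R52C, at least 194-fold lower. The adaptor PYCARD and the protease CASP1 were at least 33-fold and at least 58.4-fold lower, and the pore-forming GSDMD fell by 4.55. CASP2 rose by 0.16, CASP8 fell by 1.54, and BCL2, an inhibitor of apoptosis, rose by 1.37.

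Mismatch repair genes moved both ways. MSH6 and MSH3, which recognise mismatches, fell by 1.39 and 0.33, while PMS2, of the downstream complex, rose by 0.88. In all, 3 of 8 genes rose, 4 fell and EXO1 was not called (median -0.11). EXO1, an exonuclease, was called higher with equal library medians (0.18, adjusted p = 0.00411, limma), after quantile normalization (0.15, adjusted p = 0.0173) and in the fit over all 4 groups (0.10, adjusted p = 0.041). It was also called without Vector replicate 1, 2 or 4 (0.12 each).

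Of 23 genes of G1 control 9 rose and 13 fell (median -0.72), 1 having passed the filter through Vector alone. The D-type cyclins differed: CCND1 rose by 1.69, CCND3 fell by 0.61, and CCND2, at 10.65, 10.74 and 10.94 in Vector and -1.91, 1.77 and 2.70 in R52C, was at least 218-fold lower. CDK6 fell by 5.10 while CDK4 rose by 0.65. The inhibitors CDKN2B and CDKN2A fell by 7.02 and 2.50, CDKN1A, p21, by 2.19, and CDKN1B, p27, rose by 0.44. RB1 fell by 1.01 and MYC rose by 0.44.

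Among 21 genes induced by genotoxic stress 8 rose and 13 fell (median -0.65). SFN, stratifin, was at 13.65, 13.71 and 13.91 in Vector and 4.10, 4.57 and 4.99 in R52C and fell by 9.16. GDF15, a secreted stress hormone, rose by 2.70, TNFRSF10C, a decoy receptor, by 3.25 and RRM2B, a ribonucleotide reductase subunit, by 1.30. GADD45A and PLK3 fell by 1.88 and 1.79, and BAX by 1.01.

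Proliferation genes differed by little. For DNA replication 7 of 25 genes rose, 13 fell and 5 were not called (median -0.19), with differences from -0.92 (MCM3, a helicase subunit) to 1.36 (CDC45, its activator). For mitosis 14 of 25 rose, 8 fell and 3 were not called (median 0.17). MKI67 fell by 0.84, TOP2A by 0.56, while CDK1 rose by 1.10 and BIRC5, survivin, by 1.62. No gene of either list was lower by at least 2-fold, and 20.2% of all genes were.

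Enzymes that remove peroxide and superoxide, the products of paraquat's redox cycle, were higher in most cases. Of 22 genes 15 rose (14 by at least 2-fold), 6 fell and 1 was not called (median 1.35, against 0.02 over all genes). Catalase, CAT, which splits hydrogen peroxide, was at 9.49, 9.55 and 9.71 in Vector and 11.48, 11.56 and 11.58 in R52C and rose by 1.97 (SE 0.04, adjusted p = 3.4e-18). SOD1, the cytosolic superoxide dismutase, was at 9.75, 9.90 and 10.07 and 11.80, 11.86 and 11.88 and rose by 1.94 (adjusted p = 2.04e-17). SOD2, its mitochondrial counterpart, was at 10.22, 10.33 and 10.56 and 10.24, 10.27 and 10.44 and was not called, and its groups overlapped. SOD2 was called lower without Vector replicates 1 to 3 (-0.16, adjusted p = 0.00752, limma). Without Vector replicates 4 to 6 its difference was 0.05 and not called. The peroxiredoxins all rose, PRDX2 by 2.25, the mitochondrial PRDX3 by 1.66, PRDX4 by 1.51, PRDX6 by 1.42, PRDX1 by 1.17 and PRDX5 by 0.20, the last with overlapping libraries. The PRDX5 call ended with R52C replicates 4 to 6 (0.11, adjusted p = 0.12, limma) or Vector replicates 1 to 3 (0.11, adjusted p = 0.0897) left out. Reductases that recharge this system rose as well: GSR by 1.70, TXNRD1 by 1.44 and the mitochondrial TXNRD2 by 1.91. The glutathione peroxidases were divided, GPX4, which repairs lipid peroxides, and GPX1 rising by 1.29 and 1.05, and GPX8, GPX3 and GPX2 falling by 2.16, 1.93 and 1.42. Thioredoxin itself, TXN, fell by 0.38 while mitochondrial TXN2 rose by 1.59. With no library free of paraquat, resting levels and responses cannot be told apart.

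NRF2, the main switch of the oxidant response, and its targets did not move as a block. Of 19 genes tested 11 rose and 8 fell (median 0.46), 3 having passed the filter through Vector alone. NFE2L2, which encodes NRF2, fell by 1.61, from 11.79 ± 0.11 to 10.17 ± 0.02, and KEAP1, which marks NRF2 for destruction, rose by 0.46. The 2 subunits of glutamate-cysteine ligase, which makes glutathione, went apart, GCLM rising by 1.64 and GCLC falling by 1.59. NQO1, HMOX1 and ME1 rose by 0.62, 0.85 and 1.54. Of the efflux pumps, ABCC3 went from 9.86 ± 0.10 to under the floor in all 6 R52C libraries, and ABCC2 was at least 8.47-fold lower. SLC7A11, the cystine importer, rose by 0.08 with overlapping libraries, a call that ended without R52C replicate 2 (0.06) or Vector replicate 3 (0.07). TGACNNNGC, the core of the antioxidant response element, was found in 3 of 14 promoters of this list with an entry (21.4%), against 11% of all promoters. In the other gene sets searched the share ran from 6.25% (largest rises) to 23.1% (largest falls), so it was not particular to this list.

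Glutathione transferases, which couple glutathione to electrophiles, held the widest spread of this theme, with 9 of 15 higher, 5 lower and 1 not called (median 0.35). Through Vector alone 1 of the 15 passed the filter, and through R52C alone 1. GSTP1, whose promoter is silenced by methylation in most prostate cancers, was at 12.77, 12.92 and 13.14 in Vector and -1.15, 2.11 and 3.31 in R52C, at least 911-fold lower (adjusted p = 1.39e-12). GSTT1 and GSTM3 rose by 3.72 and 3.07, and GSTA1 was at least 7.57-fold higher. GSTO2 fell by 3.16, and GSTO1 was at 9.93 ± 0.11 and 9.92 ± 0.04. GSTO1 was called lower without Vector replicates 1 to 3 (-0.11) and higher without replicates 4 to 6 (0.08). Among 5 metallothioneins tested, metal-binding proteins with many near-identical copies, MT1X and MT2A fell by 3.48 and 1.69, MT1E was at least 29.7-fold lower and MT1G at least 11.3-fold higher (median -1.69). Through Vector alone 1 of the 5 passed the filter.

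Transcripts of the mitochondrial genome fell while many nuclear genes of the organelle rose. All 13 mtDNA-encoded genes of the respiratory chain were lower in R52C, by 0.85 (MT-ND4L) to 2.02 (MT-CO2), without overlap (median -1.42), except that quantile normalization gave a difference of 0.45 for MT-ND4 and none for MT-CO3. Their share of the summed signal was 15.03% to 16.9% in Vector and 6.12% to 6.66% in R52C. Vector replicate 4, the lowest library for the largest rises, had the highest share. Nuclear genes of complexes II and III rose in 12 of 14 cases, with 1 lower and 1 not called (median 0.81), UQCR10 by 2.0011 and SDHC, a membrane anchor of complex II, by 1.25. BCS1L, a chaperone that inserts the Rieske protein into complex III, fell by 0.89. Nuclear genes of complex IV rose in 13 of 18, with 2 lower and 3 not called (median 0.57). COX8A rose by 1.29 and the copper carriers COX17 and SCO1 by 1.15 and 1.05, whereas COX15, needed for heme A, fell by 0.59.

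**Figure D4:**
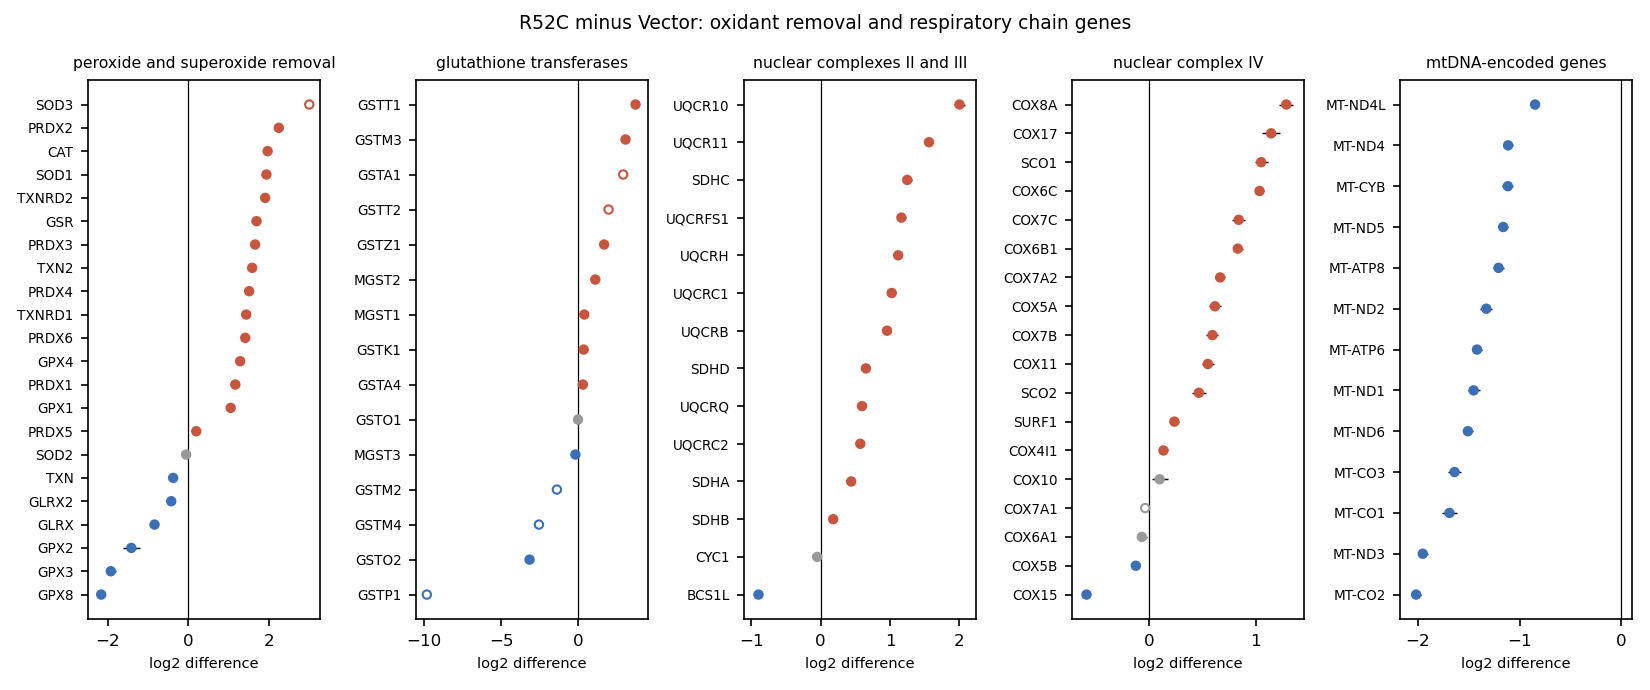
Log2 difference, R52C minus Vector, for each tested member of 5 gene lists; filled points with bars are differences with their SE, open points are bounds (lower-group libraries under the floor raised to 3), and red, blue and grey mark higher, lower and not called. Most peroxide-removing and nuclear respiratory genes lie right of 0, all 13 mtDNA-encoded genes lie left of it, and GSTP1 lies farthest left.

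Genes that import and fold mitochondrial proteins rose in 19 of 23 cases and fell in 3 (median 0.73). The receptors TOMM22 and TOMM20 rose by 1.74 and 1.18, GRPEL1, a nucleotide exchange factor, by 1.69, and the chaperonin pair HSPE1 and HSPD1 by 1.39 and 0.75. HSPA9, the import motor mortalin with which GRPEL1 works, fell by 0.89. Genes for copying and transcribing mtDNA were divided, 7 of 19 rising and 11 falling (median -0.31). TFAM, which packages mtDNA, was at 10.01, 10.09 and 10.15 in Vector and 11.36, 11.42 and 11.48 in R52C and rose by 1.34. SSBP1, which coats single strands, and TFB2M, which opens the promoters, rose by 1.49 and 1.23. The polymerases went down, POLG by 1.13 and POLRMT by 0.31, as did LRPPRC, which stabilises mitochondrial transcripts, by 0.64. Of the coactivators, PPARGC1B fell by 1.95 and PPARGC1A was at least 2.16-fold lower.

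Central metabolism rose in most of its genes. In the tricarboxylic acid cycle 13 of 17 rose and 2 fell (median 0.64), SUCLG2 by 2.62, IDH1 by 1.66 and MDH2 by 1.41, while cytosolic MDH1 fell by 0.47. For glycolysis and the hypoxia response 15 of 24 rose and 8 fell (median 0.74), 1 having passed the filter through Vector alone. ALDOC, GPI, PGK1 and LDHA rose by 2.59, 2.17, 1.87 and 1.66, while the glucose importer SLC2A1 fell by 3.15 and the lactate exporter SLC16A3 by 1.62. PKM, the pyruvate kinase, was not called. ADM, a hypoxia-induced hormone, was at least 68.8-fold lower whereas BNIP3 and EGLN3, also induced by hypoxia, rose by 2.42 and 2.52.

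In lipid synthesis 19 of 26 genes rose and 7 fell (median 0.70), and the branches differed. FADS2, the fatty acid desaturase, was at 10.54, 10.83 and 11.25 in Vector and 13.97, 14.02 and 14.07 in R52C and rose by 3.17. FASN, fatty acid synthase, ELOVL5, an elongase, and ACACA, acetyl-CoA carboxylase, rose by 2.15, 2.18 and 1.85. In the sterol branch SQLE and LSS, consecutive enzymes of cholesterol synthesis, fell by 1.92 and 1.52, and FDFT1, the step before them, rose by 1.84.

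Polyamines are made in large amounts by prostate epithelium. Of 12 genes 9 rose, 1 fell and 2 were not called (median 1.13). AMD1, which makes the aminopropyl donor, was at 11.14, 11.18 and 11.39 in Vector and 13.77, 13.81 and 13.89 in R52C and rose by 2.61. ODC1, the first enzyme, rose by 2.21, and the synthases SRM and SMS by 1.59 and 1.39. MTAP, which salvages the by-product, fell by 0.12.

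The lists of protein stress genes moved both ways, and over all genes 44.1% were higher and 42.3% lower. Of 16 endoplasmic reticulum genes 13 rose and 2 fell (median 0.79), MANF, SDF2L1 and PDIA4 by 2.19, 2.09 and 1.92, while HSPA5, the main chaperone, fell by 0.79. In the cytosolic heat shock list 4 of 14 rose and 8 fell (median -0.34). HSP90AA1 and HSP90AB1 rose by 1.39 and 1.27, and HSPB1 fell by 2.53. HSPA1A was at least 96.1-fold lower and HSPA1B fell by 0.25, but the pair is nearly identical and the split of its reads is uncertain. In the integrated stress response 8 of 20 rose and 11 fell (median -0.22), 1 having passed the filter through R52C alone. SLC7A5, the leucine transporter, was at 15.71, 15.97 and 16.29 in Vector and 7.46, 7.71 and 8.03 in R52C and fell by 8.27 (adjusted p = 5.25e-20), and its partner chain SLC3A2 fell by 2.93. ATF4, the central factor, rose by 0.73, while its targets DDIT3 and TRIB3 fell by 1.31 and 1.43.

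**Figure D5:**
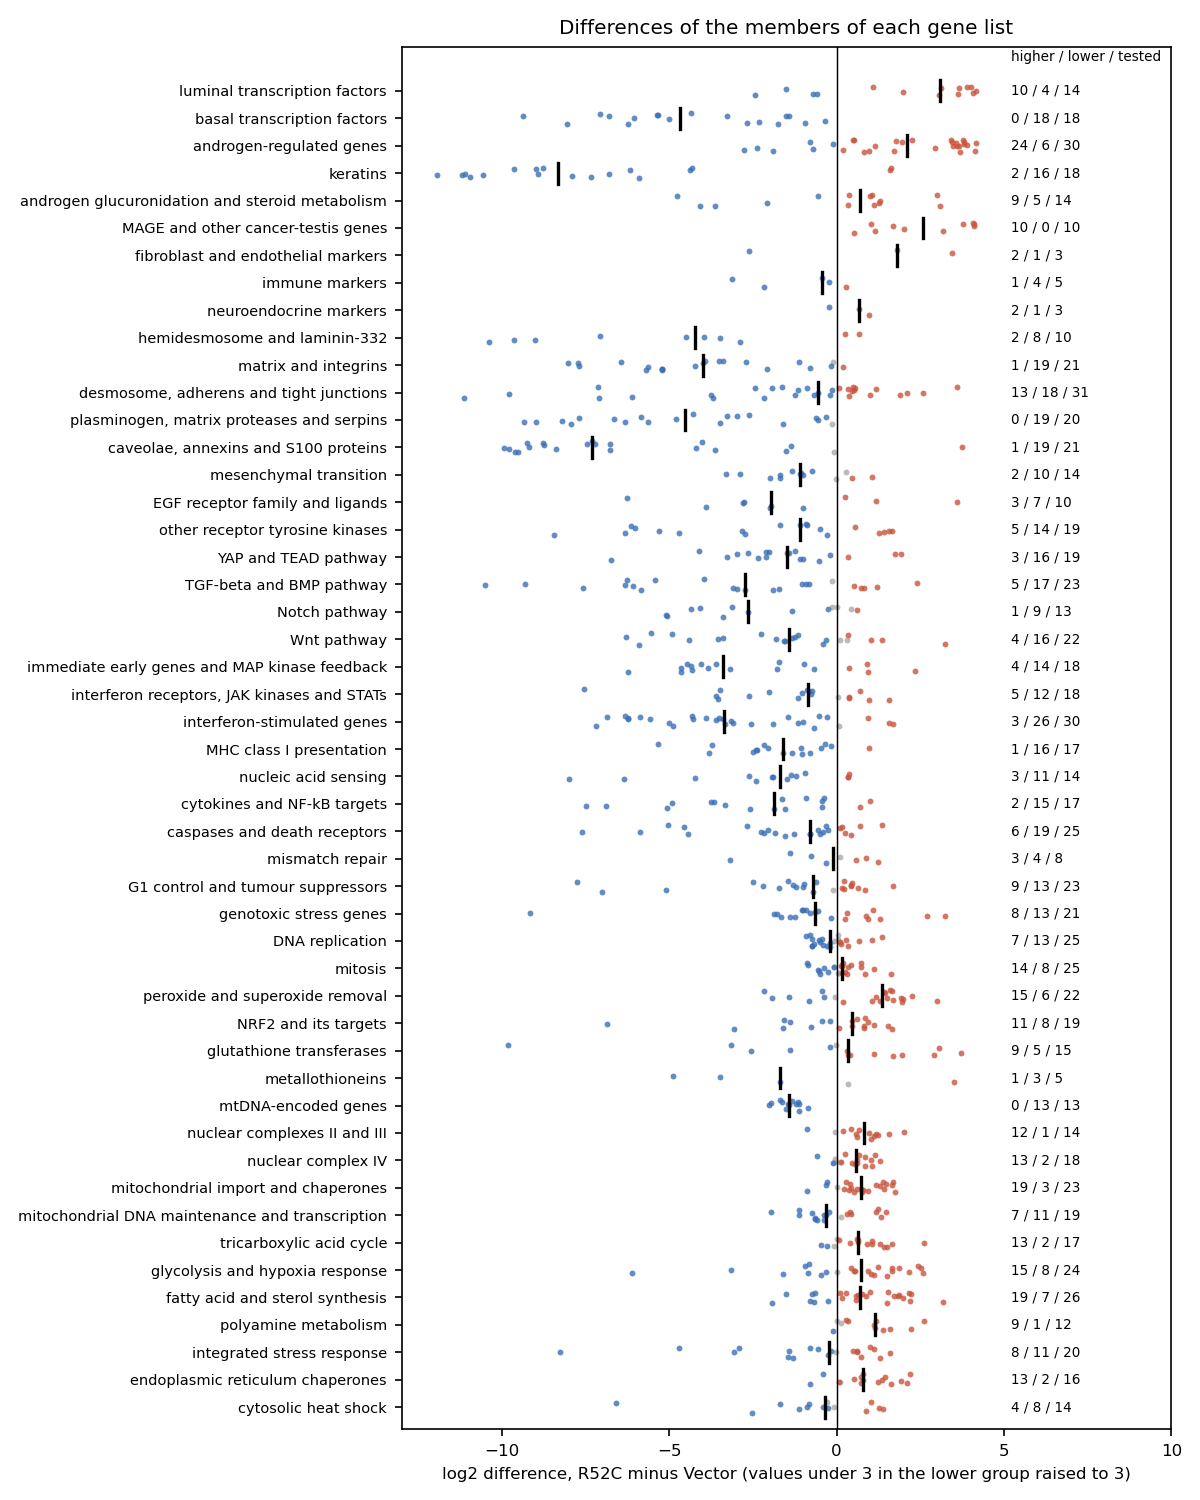
Log2 difference, R52C minus Vector, of every tested member of the 49 gene lists (points; red higher, blue lower, grey not called), with the median of the list as a black bar and the counts higher, lower and tested at right. Medians run from -8.33 (keratins) to 3.09 (luminal transcription factors), against 0.02 for all 20120 genes.

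Some abundant genes differed little as deposited. The 10 genes with the highest mean level among those within 0.1 log2 units of equality were picked for that small difference, so it is a description. NEAT1, the scaffold RNA of paraspeckles, was at 15.95, 16.25 and 16.44 in Vector and 16.21, 16.28 and 16.37 in R52C. SFPQ, a protein of the same bodies, was at 13.17, 13.19 and 13.24 and 13.11, 13.16 and 13.22. PKM, named above, was at 14.12, 14.27 and 14.42 and 14.25, 14.31 and 14.33. Quantile normalization put NEAT1 0.86 higher (adjusted p = 1.19e-08, limma) and PKM 0.22 higher (adjusted p = 5.2e-07) in R52C. The others were DDX5, an RNA helicase (difference -0.07), EIF1, a translation initiation factor (-0.08), the histone chaperone NAP1L1 (-0.09), DYNC1H1, the dynein heavy chain (-0.01), GANAB, a glucosidase of glycoprotein folding (0.02), NUCKS1, a chromatin protein (0.02), and RNF213, a ubiquitin ligase (0.08). The groups overlapped in all 10, and DDX5 alone passed the test, a call that ended when Vector replicate 4 or 6 or R52C replicate 1, 3, 5 or 6 was left out (-0.07 to -0.06). PKM and GANAB were called lower without Vector replicates 1 to 3 (-0.09 and -0.08) and higher without replicates 4 to 6 (0.14 and 0.12). NEAT1 was called higher without Vector replicates 1 to 3 (0.26) and lower without replicates 4 to 6 (-0.14). Without Vector replicates 1 to 3, EIF1 and NAP1L1 were called lower (-0.16 and -0.19) and RNF213 higher (0.17). NUCKS1 was called higher without Vector replicates 4 to 6 (0.09).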

How the data were processed

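RNA of 22 RWPE1 libraries was measured by RNA-seq. Per the labels' protocols, libraries were made from poly-A RNA (Illumina TruSeq) and read on a HiSeq2000. Tools named in the submitters' processing notes are TopHat, Cufflinks, DESeq and CASAVA 1.8.2, and the builds are GRCh37 and mm9 (mouse), without the step each was used in. The deposited table holds the authors' normalized expression on a log2 scale, with values below 0. Its normalization, counting method and use of strand are not given in the sources used here. Read depth is therefore unknown, no counting interval or limit of detection can be given, and a gene cannot be told apart from an overlapping or antisense partner. Near-identical copies may share reads, so values of paralogs are uncertain.

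Entries without a symbol (3473) and further entries of a repeated symbol (3677) were left out. Genes above 3 in at least 4 of the 6 Vector and 6 R52C libraries were fitted with limma 3.58.1 in R 4.3.3. The model had group means and a moderated spread with a trend on expression, and p-values were two-sided and adjusted over 20120 genes by the Benjamini-Hochberg method. The threshold was 0.05, and the code was tested on simulated data. Replicate numbers follow accession order and only name libraries. Summed signal is the sum over genes of 2 raised to the deposited log2 value. The members and the 49 gene lists were chosen with earlier results of these data known, so their counts are no independent support. Genes outside the lists were named by rule: the 20 largest rises and falls among called genes without overlap, the 10 highest genes of each group, and the 10 highest within 0.1 of equality. Of 925 list members 856 were tested. Some genes of these lists and sets, the targeted gene among them, count in the totals but are not reported here. Promoters (RefSeq, GRCh38.p14, 27305 genes) and mature miRNAs (RefSeq) were matched by symbol or by a unique synonym. Alternatives were other normalizations, filters, variance models and treatments of repeated symbols, a fit over all 22 libraries, and leaving out libraries singly or by 3.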

Additional observations from a re-analysis of the deposited data

Results flagged for a closer look

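Of 786 pairs of a named gene and a group, 36 (4.58%) held a library whose log2 level stood far from the other 5 of its group, by Dixon's ratio of the gap to the group's range. Chance alone gives such a library in about 1 in 20 groups. The flagged values were unevenly spread over the libraries, as given below, so their total does not tell whether they arose by chance. The level of that library is given against the lowest and highest of the other 5.

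Vector replicate 3 was the highest library in CDH11 (6.06 against 5.82 to 5.87). Vector replicate 4 was the highest library in B2M (13.56 against 13.41 to 13.45), CDKN1B (10.01 against 9.80 to 9.86), IFI16 (11.25 against 10.94 to 10.97), ITGA6 (14.37 against 14.14 to 14.20), KLF5 (13.86 against 13.54 to 13.65), MT-ND5 (17.22 against 17.02 to 17.09), NFE2L2 (11.9993 against 11.69 to 11.80), SQLE (12.25 against 11.96 to 12.03) and TP63 (12.58 against 12.28 to 12.37). Vector replicate 4 was the lowest library in CREB3L4 (8.87 against 9.12 to 9.19) and FGFR4 (5.51 against 6.06 to 6.37). Vector replicate 5 was the highest library in MST1R (11.26 against 11.08 to 11.12). Vector replicate 6 was the highest library in AMD1 (11.39 against 11.14 to 11.22), ELOVL5 (11.58 against 11.47 to 11.50), GSTT1 (6.17 against 5.23 to 5.53) and PDIA4 (11.15 against 10.78 to 10.91).

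R52C replicate 2 was the highest library in EXO1 (8.56 against 8.43 to 8.48), GCLC (9.45 against 9.30 to 9.35) and SMAD2 (10.70 against 10.58 to 10.62). R52C replicate 2 was the lowest library in CDK4 (10.44 against 10.59 to 10.62), ENO2 (10.20 against 10.26 to 10.29), FOLH1B (6.29 against 7.34 to 7.82), GDF15 (14.31 against 14.46 to 14.53), GSDMD (5.47 against 6.02 to 6.15), ISG15 (8.62 against 8.84 to 8.94), MDH2 (12.34 against 12.39 to 12.41), PKM (14.25 against 14.30 to 14.33), SLC45A3 (12.79 against 12.85 to 12.89) and TRIB3 (11.38 against 11.46 to 11.49). R52C replicate 3 was the highest library in SMAD3 (8.53 against 8.28 to 8.37). R52C replicate 3 was the lowest library in TOMM20 (12.56 against 12.61 to 12.63). R52C replicate 4 was the highest library in KLF4 (8.71 against 8.56 to 8.60) and PLK3 (7.0031 against 6.67 to 6.73). R52C replicate 5 was the lowest library in LOX (5.38 against 5.68 to 5.84). R52C replicate 6 was the highest library in NFE2L2 (10.21 against 10.16 to 10.17).

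The library with most of these values was replicate 4 in Vector (11) and replicate 2 in R52C (13).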

How the results depend on the processing

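Of 25 alternatives, none moved a count of called genes by more than 1.5 times. Genes higher in R52C numbered 7525 (genes above 5) to 9882 (quantile normalization) and genes lower 6767 (Vector replicates 1 to 3 left out) to 9797 (no filter). The median difference of all genes was 0.03 as deposited (no value raised to the floor), 0.11 with all library medians made equal, 0.19 after quantile normalization, and 0.16 and 0.15 with Vector replicates 1 to 3 or 4 to 6 left out. Leaving out 3 libraries of a group also removes genes that only this group expresses, by construction. Of 432 named genes 28 gained or lost a call or changed sign under some alternative. No paired analysis was possible because the labels give the libraries no shared replicate numbers.

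With equal library medians the sign turned in ANXA5 (0.0110), DDX5 (0.0065), DYNC1H1 (0.0735), EIF1 (0.0029), GSTO1 (0.0664), SFPQ (0.0340) and SOD2 (0.0249), and the calls of ACSL3, CDH1, LAMC1 and MTAP were lost. After quantile normalization it turned in DYNC1H1 (0.0269), GANAB (-0.0196), GSTO1 (0.0221), MMP13 (0.2323) and MT-ND4 (0.4522), and MT-CO3 came to 0.0000. With a spread of its own for each library it turned in GSTO1 (0.0266) and NEAT1 (-0.0222), and DYNC1H1 came to 0.0000. Without Vector replicates 4 to 6 it turned in ANXA5 (0.0536), DYNC1H1 (0.0325), EIF1 (0.0062), FN1 (0.1880), GSTO1 (0.0813), LAMC1 (0.0048), NAP1L1 (0.0159), NEAT1 (-0.1361), RNF213 (-0.0057) and SOD2 (0.0541). Without Vector replicates 1 to 3 it turned in GANAB (-0.0831), IFITM3 (-0.1668), MMP13 (0.0114), NUCKS1 (-0.0577) and PKM (-0.0900). FN1 was called lower without those (-0.4088) and higher without replicates 4 to 6. R52C replicates 1 to 3 left out gave 0.0128 for GSTO1, and replicates 4 to 6 left out gave 0.0409 for DYNC1H1. With single libraries left out, the difference of DYNC1H1 was -0.0248 to 0.0082, the difference of GANAB -0.0058 to 0.0396, the difference of GSTO1 -0.0379 to 0.0101, the difference of NUCKS1 -0.0011 to 0.0505 and the difference of PKM -0.0071 to 0.0525. Among lists, the median of the fibroblast and endothelial markers was -0.8955 with the filter over all 22 libraries, and that of the neuroendocrine markers -0.0352 there and -0.5413 without a filter, since the filter decides which of these low genes enter. For the other changes the cause was not tested.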
